A study of Mus musculus with 4 samples.

Results

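Syndecans and glypicans are the core proteins that carry heparan sulfate chains at the cell surface. Their genes were taken by symbol, which gave 10 of the 33641 genes measured, the syndecan genes Sdc1 to Sdc4 and the glypican genes Gpc1 to Gpc6. RNA was sequenced from cardiac fibroblasts isolated from wild-type C57BL/6J mice 12 weeks old. The groups were cells given TGFbeta at 10 ng/ml (2 libraries) and cells given vehicle control (2 libraries). All 4 cultures had reached 80% confluency and took up 4-thiouridine, a uridine analogue used for crosslinking, at 20 and 4 h before irradiation at 368 nm. By the series text the RNA had been pulled down with the RNA-binding protein HuR, while the sample labels describe total RNA, and no input library was analysed here. The values are therefore given as levels in these libraries, and binding to HuR cannot be told apart from abundance. The labels do not say whether replicates came from separate animals or cultures, so p-values measure only the spread between these samples.

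Syndecans span the membrane and bind adaptor and signalling proteins through a short cytoplasmic tail, whereas glypicans are held on the outer face of the membrane by a glycosylphosphatidylinositol (GPI) anchor. The heparan sulfate on both binds growth factors, morphogens and matrix proteins, and presents them to their receptors. Syndecans also cooperate with integrins in adhesion to fibronectin, and proteases can shed their outer part. In the heart, syndecans are known from studies of fibrosis and wound healing, in which fibroblasts become contractile, matrix-producing cells under TGFbeta.

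Gpc2 fell with TGFbeta, to 6.01 ± 0.0977 TPM against 11.8 ± 0.795 TPM with vehicle (mean ± SD, n = 2 each). Gpc2 was the 1 member that passed the test, out of 9 that were tested. Gpc4, the member with the highest level in these libraries, averaged 269 TPM with TGFbeta and 194 TPM with vehicle. Gpc1 averaged 14.7 TPM with TGFbeta and 8.32 TPM with vehicle, and neither Gpc4 nor Gpc1 passed. The 4 syndecan genes differed by at most 0.32 on the log2 scale and none passed. TPM gives transcripts of a gene per 1000000 transcripts, a level corrected for gene length. If the RNA was pulled down with HuR, a difference in level between genes can reflect binding as well as abundance. The test was limma on log2(TPM + 1), across the 15815 genes with a mean of at least 1 TPM over the 4 libraries, and a gene was called at a Benjamini-Hochberg adjusted p under 0.05. Log2 changes are TGFbeta minus vehicle. In bulk samples, fewer cells of a type and less RNA per cell cannot be told apart.

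Of the 9 tested members, 0 were called higher and 1 lower (3 at an unadjusted p under 0.05, which were Gpc1, Gpc2 and Gpc4). Of all 15815 tested genes 3873 (24.5%) had an unadjusted p under 0.05, so these 3 of 9 also lie near the background. Over all tested genes limma called 5.92%, of which 244 genes (1.54%) were higher and 692 (4.38%) lower, so 1 call among 9 members lies near the background. The balance of directions over all genes moved with scaling. Libraries brought to the same median gave 421 genes higher and 401 lower, and quantile-normalized ones gave 333 and 401. The libraries of both groups did not overlap for 6 of the 9 members, against 55.3% of all tested genes. With TGFbeta, 3 of these members were higher (15.5% of all tested genes) and 3 lower (39.8%). The median log2 change of the tested members was -0.14, and that of all tested genes was -0.13. Median scaling turned both signs, to 0.016 for the members and 0.03 for all tested genes, and without TGFbeta 1 the members' median was 0.019.

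**Figure D1:**
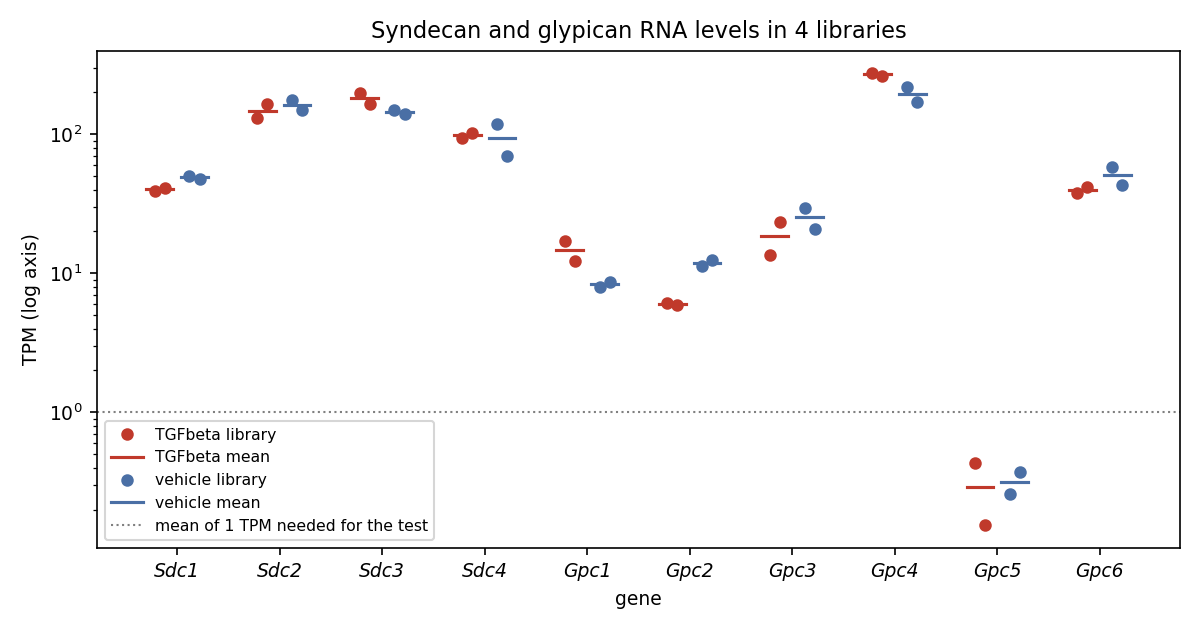
TPM of each syndecan and glypican gene in every library on a log axis, with TGFbeta libraries in red to the left of vehicle libraries in blue and a short line at the mean of 2 libraries. Gpc2 shows tight pairs of points that lie apart, and Gpc5 lies below the mean of 1 TPM (dotted line) that the test needed.

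The levels spanned from below 1 TPM for Gpc5 to 274 TPM for Gpc4. In order of mean level, the TGFbeta libraries had Gpc4, Sdc3, Sdc2, Sdc4, Sdc1, Gpc6, Gpc3, Gpc1, Gpc2 and Gpc5. Neighbours in this order were separated except for Sdc1 with Gpc6 and Gpc3 with Gpc1, whose libraries overlapped. The vehicle libraries had Gpc4, Sdc2, Sdc3, Sdc4, Gpc6, Sdc1, Gpc3, Gpc2, Gpc1 and Gpc5. In vehicle the libraries of Gpc4 and Sdc2, of Sdc2 and Sdc3, and of Gpc6 and Sdc1 overlapped. Gpc1 stood above Gpc2 in the TGFbeta libraries and below it in the vehicle libraries.

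Gpc2 encodes a glypican best known from the developing nervous system. It lies on the minus strand of chromosome 5 (ENSMUSG00000029510.15, GRCm38, 138273655 to 138280005). Its level was 6.08 and 5.94 TPM in the TGFbeta libraries, against 11.3 and 12.4 TPM in the vehicle libraries. Both TGFbeta libraries lay below both vehicle libraries, and the replicates of each group lay close together. The fold of mean TPM was 0.507 and the log2 change was -0.87 (95% interval -1.29 to -0.46, SE 0.17, limma adjusted p = 0.0433). In size, this change was larger than that of 92.1% of all tested genes. Gpc2 lost its call once libraries were scaled to a common median (-0.72, limma adjusted p = 0.074) or quantile-normalized (-0.70, limma adjusted p = 0.0815). It also lost it once the 23602 genes detected in any library entered the test (limma adjusted p = 0.114), where 0 genes were called in all. Leaving out TGFbeta 1, TGFbeta 2, vehicle 1 or vehicle 2 also ended the call, with log2 changes of -0.89, -0.86, -0.94 and -0.81. Each of these fits leaves 1 library in a group, which weakens the test for every gene. Over all 15 alternatives the log2 change of Gpc2 lay between -0.97 and -0.61. Gpc2 was called in 8 of 16 settings, counting the main one.

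Gpc2 shares its start region with another gene. Stag3, which encodes a cohesin subunit known for its part in meiosis, starts 235 bases away on the opposite strand and runs the other way (ENSMUSG00000036928.14, chromosome 5, 138280240 to 138312393). It was the 1 coding gene with a divergent start within 1 kb of any of the 10 members, and it was looked up by that position after the result of Gpc2 was known. Stag3 had 1.31 and 1.35 TPM in the TGFbeta libraries, against 3.89 and 4.73 TPM in the vehicle libraries. Its groups did not overlap either, with a log2 change of -1.19 (SE 0.21, limma adjusted p = 0.0353). Of all tested genes, 39.8% were lower with groups that did not overlap, and limma called 4.38% lower. Stag3 lost its call with libraries on a common median (limma adjusted p = 0.0551) and with quantile-normalized values (0.054). It also did with all detected genes in the test (0.104), where 0 genes were called in all. Without TGFbeta 1, TGFbeta 2, vehicle 1 or vehicle 2 its log2 change was -1.17, -1.20, -1.30 and -1.07. Stag3 was not called in these fits, which leave 1 library in a group.

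Gm43720, a read-through entry on the same strand, runs from the Gpc2 region into Gal3st4, a sulfotransferase gene downstream, so reads of Gpc2 and Gm43720 can be split between them. Gm43720 had 0.820 and 1.31 TPM with TGFbeta and 1.39 and 1.23 TPM with vehicle. Gal3st4 had 2.93 and 4.61 TPM with TGFbeta and 3.84 and 3.54 TPM with vehicle. The groups overlapped for both genes, and neither passed (limma adjusted p = 0.717 for Gm43720 and 0.995 for Gal3st4). With the TPM of Gm43720 added to Gpc2, an alternative chosen after seeing the data, the log2 change of Gpc2 was -0.81 (limma adjusted p = 0.0477).

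**Figure D2:**
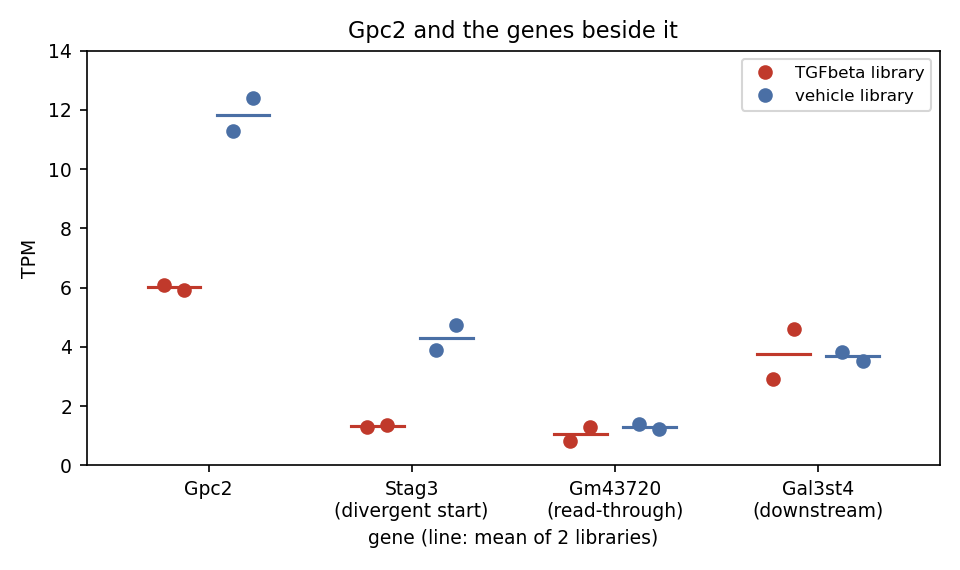
TPM of Gpc2, its divergent neighbour Stag3, the read-through entry Gm43720 and the downstream gene Gal3st4, with TGFbeta libraries (red) left of vehicle libraries (blue) and a line at each mean. Gpc2 and Stag3 were lower in both TGFbeta libraries, while the groups overlapped for the other genes.

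Most of the region between the starts of Gpc2 and Stag3 is shown because both genes were lower with TGFbeta. The RefSeq promoter window of Gpc2 covers 250 bases before to 50 after its RefSeq start (GRCm38.p6, chr5:138279888-138280187, minus strand), and promoter windows of 7 of the 10 members were matched. The RefSeq start differs from the start of Gpc2 used above (138280005), so more of the window falls inside the gene as placed above. Capitals mark CCGCCC, the core of the GC box that Sp-family factors are known to bind.
Gpc2 promoter: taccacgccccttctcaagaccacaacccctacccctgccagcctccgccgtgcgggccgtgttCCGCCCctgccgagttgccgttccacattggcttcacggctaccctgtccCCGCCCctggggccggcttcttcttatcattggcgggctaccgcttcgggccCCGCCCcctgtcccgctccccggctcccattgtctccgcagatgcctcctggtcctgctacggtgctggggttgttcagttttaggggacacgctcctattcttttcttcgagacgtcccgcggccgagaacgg
The window held 3 matches of CCGCCC, counted on both strands, and 35.7% of all 32851 promoter windows held at least 1. Its GC content was 65.7%, against a median of 52.7% over all windows. CAGAC, letters within a known Smad-binding element, had 0 matches on either strand, while 49.6% of all windows held it. The matches describe letters in this window and not sites in use. Whether the lower levels of Gpc2 and Stag3 are linked was not tested.

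Gpc1, Gpc4 and Gpc6 belong to the same glypican subfamily as Gpc2. Gpc1, known as a coreceptor for fibroblast growth factors, had 17.1 and 12.3 TPM in the TGFbeta libraries and 8.0 and 8.64 TPM in the vehicle libraries. The groups did not overlap, and the TGFbeta libraries differed more from each other than the vehicle libraries did. The log2 change of Gpc1 was 0.74 (95% interval 0.24 to 1.23, SE 0.20), and it did not pass (limma adjusted p = 0.0936). With the test restricted to protein-coding genes, Gpc1 passed (limma adjusted p = 0.0466). Of 15 settings, counting the main one, Gpc1 passed in this 1 only. With all detected genes in the test its limma adjusted p was 0.193. Libraries on a common median gave 0.89 for Gpc1 (limma adjusted p = 0.0684) and -0.72 for Gpc2 (0.074). Quantile-normalized libraries gave 0.89 (0.0758) and -0.70 (0.0815). Which of Gpc1 and Gpc2 changed more in size thus depended on scaling. Leaving out TGFbeta 1 took Gpc1 to 0.52, and leaving out TGFbeta 2 took it to 0.96. The ratio of Gpc1 to Gpc2 TPM was 2.81 and 2.07 in the TGFbeta libraries, against 0.709 and 0.696 in the vehicle libraries. Gpc1 is on chromosome 1 (ENSMUSG00000034220.7, 92831645 to 92860779, plus strand).

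Gpc4, which is broadly expressed and modulates Wnt and BMP signalling, had 274 and 264 TPM in the TGFbeta libraries and 218 and 170.0 TPM in the vehicle libraries. Both TGFbeta libraries lay above both vehicle libraries. Gpc4 had a log2 change of 0.48 (95% interval 0.09 to 0.87, SE 0.16), and it did not pass (limma adjusted p = 0.140). Without vehicle 2 the change of Gpc4 was 0.30. Gpc6, a widely expressed glypican of the same subfamily, had 38.0 and 41.9 TPM with TGFbeta and 57.7 and 43.3 TPM with vehicle. Its groups did not overlap, but the gap between TGFbeta 2 and vehicle 2 was small. Its log2 change was -0.32 (95% interval -0.75 to 0.11, limma adjusted p = 0.336), and for Gpc6 it was -0.115 without vehicle 1 and -0.52 without vehicle 2.

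Gpc3 and Gpc5 form the other glypican subfamily. Gpc3, an X-linked gene whose product limits hedgehog signalling and whose human counterpart is mutated in an overgrowth syndrome, had 13.6 and 23.2 TPM in the TGFbeta libraries and 29.5 and 20.9 TPM in the vehicle libraries. The groups overlapped. The log2 change of Gpc3 was -0.46 (95% interval -1.16 to 0.24, limma adjusted p = 0.382), and it ran from -0.82 without TGFbeta 2 to -0.10 without TGFbeta 1. Gpc5 was the lowest member, with 0.430 and 0.154 TPM with TGFbeta and 0.261 and 0.373 TPM with vehicle. It lay under the minimum mean of 1 TPM and was not tested.

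The glypican genes lie partly in pairs. Gpc3 and Gpc4 follow each other on the minus strand of chromosome X with a gap of 107 kb and 0 annotated coding genes between them. Their levels were far apart, since the ratio of Gpc4 to Gpc3 TPM was 20.1 and 11.4 in the TGFbeta libraries and 7.39 and 8.12 in the vehicle libraries. Gpc5 and Gpc6 follow each other on chromosome 14 with a gap of 400.1 kb and also 0 coding genes between them, and here the upstream gene was below 1 TPM in each library while Gpc6 was above 38 TPM. Neither Gpc3 nor Gpc4 passed the test, and Gpc6 did not pass while Gpc5 was not tested.

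Gpc4 made up most of the summed glypican TPM in these libraries. It took 78.4% and 75.9% of the summed glypican TPM in the TGFbeta libraries, against 67.1% and 66.5% in the vehicle libraries. The share of Gpc6 was 10.9% and 12.1% in the TGFbeta libraries and 17.8% and 16.9% in the vehicle libraries. That of Gpc2 was 1.74% and 1.71% with TGFbeta and 3.47% and 4.85% with vehicle. All 3 shares had groups that did not overlap, as did the shares of Gpc1 and Gpc3, while the groups overlapped for the share of Gpc5. Such shares are tied to each other, because a rise of Gpc4 alone lowers the others, and with 2 libraries a group the smallest p of an exact permutation test is 0.333, so they were not tested. The summed glypican level was 349 and 347 TPM in the TGFbeta libraries, against 325 and 256 TPM in the vehicle libraries.

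**Figure D3:**
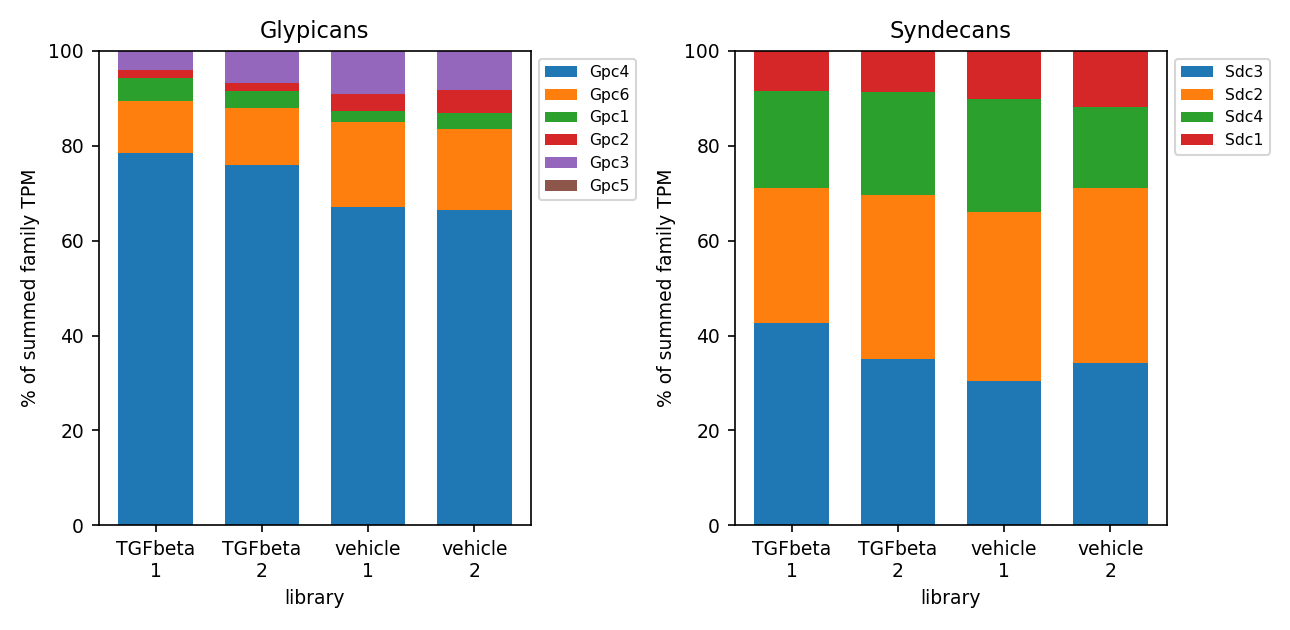
Share of each gene in the summed TPM of the glypicans (left) and of the syndecans (right), in percent, with 1 bar per library and TGFbeta libraries to the left. Gpc4 takes 75.9% or more of the glypican total in the TGFbeta libraries and 67.1% or less in the vehicle libraries.

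Among the syndecans, Sdc1 and Sdc3 form a subfamily with each other. Sdc3, known best from neurons and muscle, had 197 and 165 TPM in the TGFbeta libraries and 149.7 and 139 TPM in the vehicle libraries. Its groups did not overlap, but the log2 change of 0.32 (95% interval -0.03 to 0.68) did not pass (limma adjusted p = 0.240), and for Sdc3 it was 0.20 without TGFbeta 1. Sdc1, the main syndecan of epithelia, had 38.7 and 41.4 TPM with TGFbeta and 50.1 and 47.6 TPM with vehicle. Here too the groups did not overlap, in the other direction, with a log2 change of -0.28 (95% interval -0.61 to 0.04, limma adjusted p = 0.262), which for Sdc1 was -0.13 after median scaling. The ratio of Sdc3 to Sdc1 TPM was 5.08 and 4.00 in the TGFbeta libraries and 2.99 and 2.91 in the vehicle libraries.

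Sdc2 and Sdc4 form the other syndecan subfamily. Sdc2, the syndecan most linked to mesenchymal cells, had 132 and 164 TPM with TGFbeta and 176 and 149 TPM with vehicle, and the groups overlapped. The log2 change of Sdc2 was -0.14 (95% interval -0.54 to 0.27, limma adjusted p = 0.662), and its sign turned to 0.02 after median scaling and also without TGFbeta 1. Sdc4, which sits in focal adhesions and acts with integrins on fibronectin, had 94.2 and 102 TPM with TGFbeta. The vehicle libraries had 118 and 69.3 TPM of Sdc4, 1 above and 1 below both TGFbeta libraries. The log2 change of Sdc4 was 0.11 (95% interval -0.50 to 0.72, limma adjusted p = 0.827), and it was -0.27 without vehicle 2 and 0.49 without vehicle 1. The spread between the vehicle libraries was thus larger than the difference between the groups. The summed syndecan level was 461 and 472 TPM in the TGFbeta libraries, against 493 and 405 TPM in the vehicle libraries, with overlapping groups.

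Annotated genes on the opposite strand overlap Sdc3, Gpc1, Gpc3, Gpc5 and Gpc6, and whether reads were counted by strand is not given in the sources. Whether reads of the opposite strand were counted for these genes is therefore not known. Of the genes on the opposite strand, those with a value were Ankmy1 at Gpc1 (mean 0.139 TPM) and Gm18367 at Gpc5 (mean 0.349 TPM).

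**Figure D4:**
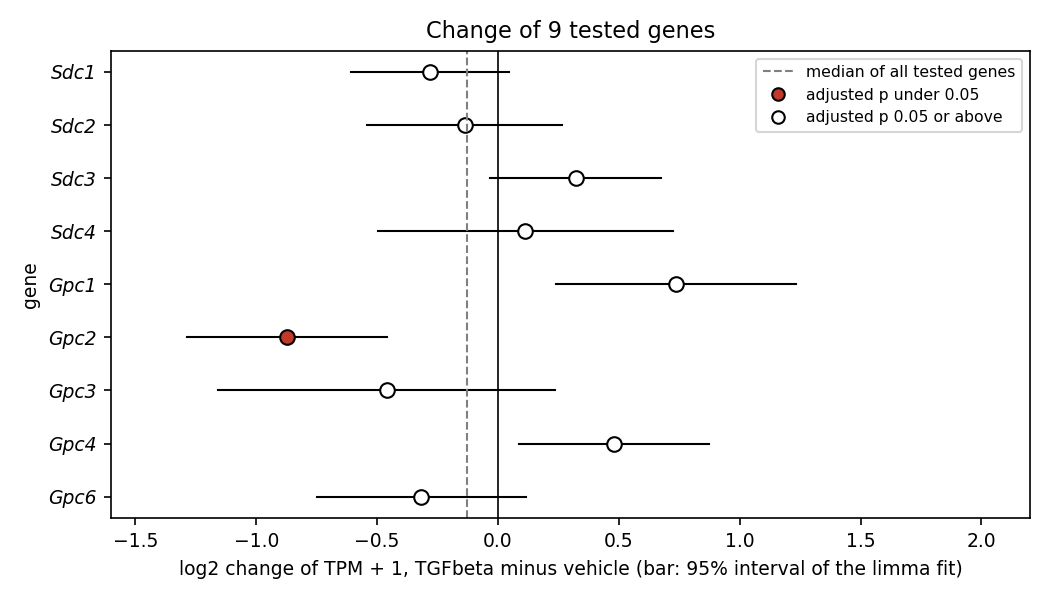
Log2 change of TPM + 1, TGFbeta minus vehicle, for the 9 tested members, with 95% intervals of the limma fit and a dashed line at the median of all tested genes (-0.13). Gpc2 (filled) is the 1 gene with an adjusted p under 0.05, with an interval below 0, and the intervals of Gpc1 and Gpc4 lie above 0.

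The 3′ untranslated regions (UTRs) of the members were searched because HuR, the protein in the series title, is known to bind U-rich and AU-rich RNA there. The longest annotated 3′ UTR of each gene in GENCODE M21 was read on the transcript strand for ATTTA and TTTNTTT, where N is any base. Matches were allowed to overlap each other and the other motif. For each member the 25 bases with the most letters in whole motifs were taken. Those of Gpc2, Gpc1 and Gpc4 are shown as the members with an unadjusted p under 0.05, those of Sdc2 and Sdc4 as the members with the most matches of either motif, with motif letters in capitals.
Gpc2 (3′ UTR bases 209 to 233 of 655): ctggggatATTTATTTAggaaggat
Gpc1 (3′ UTR bases 1260 to 1284 of 2215): aTTTTTTTTTTTTaacTTTCTTTta
Gpc4 (3′ UTR bases 334 to 358 of 500): tTTTATTTgtggggttTTTCTTTtc
Sdc2 (3′ UTR bases 5 to 29 of 2395): cccATTTAgtgtctctATTTAggag
Sdc4 (3′ UTR bases 929 to 953 of 1839): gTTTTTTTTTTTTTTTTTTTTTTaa

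Every member had at least 1 ATTTA, as did 69.3% of the 13568 tested genes with a 3′ UTR. The longest annotated 3′ UTR of Gpc2 held 4 ATTTA, against a median of 1 among 1584 tested genes with a UTR of 0.8 to 1.25 times its length, of which 58.6% held at least 1. Sdc2 held 11 ATTTA, against a median of 4 among 2113 genes of like length. TTTNTTT was found in 9 of the 10 members, the exception being Gpc5, and in 68.6% of the tested genes. Sdc4 held 38 matches, against a median of 4 among 2270 genes of like length, and Gpc4 held 12, against a median of 0 among 1403. Not all members lay above the median of their like-length genes. ATTTA was below it in Sdc1 (1 against 3), Sdc3 (3 against 6), Sdc4 (1 against 3) and Gpc1 (2 against 3). It was equal in Gpc6 and above in Gpc3, Gpc4 and Gpc5. TTTNTTT was below it in Sdc2 (3 against 7), Sdc3 (4 against 10) and Gpc5 (0 against 1), and above in Sdc1, Gpc1, Gpc2, Gpc3 and Gpc6. Which UTR ends these cells used was not measured, and a match is a description of letters and not a site bound in these cells.

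Each core protein needs heparan sulfate chains, and the genes of chain synthesis and of the partners described next are read against the same background as the members, with 1.54% of all tested genes called higher, 4.38% lower and 24.5% at an unadjusted p under 0.05. The lists are short, and nothing particular to a list is read from its count. The chains start on a linker of sugars, for which 0 of 7 tested genes rose and 1 fell (median log2 change -0.06). Of these 7 genes 4 had a limma unadjusted p under 0.05. Pxylp1, which encodes a phosphatase of the linker xylose, had 14.6 and 12.1 TPM with TGFbeta, against 30.0 and 24.2 TPM with vehicle (log2 change -0.97, SE 0.18, limma adjusted p = 0.0406). Of 5 polymerization genes 1 rose and 0 fell (1 at a limma unadjusted p under 0.05, median -0.18). Ext1, which encodes a subunit of the copolymerase that extends heparan sulfate, had 159.5 and 168 TPM in the TGFbeta libraries, against 85.2 and 76.4 TPM in the vehicle libraries. The log2 change of Ext1 was 1.01 (SE 0.13, limma adjusted p = 0.0173), while Ext2, its partner subunit, had -0.24 (limma adjusted p = 0.317; -0.086 after median scaling).

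Of 18 genes of sulfation and editing, 12 were tested, of which 0 rose and 1 fell (median 0.07). Hs3st1, whose enzyme adds the 3-O-sulfate that antithrombin needs for binding, had 3.58 and 2.32 TPM with TGFbeta and 6.996 and 7.86 TPM with vehicle (log2 change -1.11, SE 0.23, limma adjusted p = 0.0486). The other 11 tested genes did not pass (7 of the 12 had an unadjusted p under 0.05). The count moved with the settings, to 5 called genes among protein-coding genes or with a minimum mean of 5 TPM (3 higher, 2 lower), and 3, all higher, after median scaling. Shedding and cleavage genes, among them metalloproteases and heparanase, had 0 of 11 tested genes called by limma (4 at an unadjusted p under 0.05; median -0.06), with the largest difference for Mmp9 (log2 change -0.70, limma adjusted p = 0.131). Mmp14 and Timp3, a membrane metalloprotease and a protease inhibitor, were called higher after median scaling, with robust variances and with a minimum mean of 5 TPM, and among protein-coding genes 3 of the list were called (2 higher, 1 lower). For GPI anchor attachment, which glypicans need, 0 of 10 were called by limma (0 at an unadjusted p under 0.05; median -0.10), the largest difference being Pigt at -0.24, a value that leaving out TGFbeta 1 moved to -0.43, TGFbeta 2 to -0.045, vehicle 1 to -0.37 and vehicle 2 to -0.11.

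Genes of the partners of these proteins were described in the same way. Cytoplasmic partners of syndecans, such as the adaptors syntenin and synectin, had 0 of 10 tested genes called by limma (2 at an unadjusted p under 0.05; median -0.03), the largest difference being Actn1 at 0.58 (limma adjusted p = 0.105). Adhesion genes linked to syndecans, such as integrins and fibronectin, had 0 of 11 called by limma (3 at an unadjusted p under 0.05; median 0.23), the largest being Tnc at 0.90 (limma adjusted p = 0.0627). Tnc, a matrix glycoprotein gene, passed after median scaling (1.05, limma adjusted p = 0.0349), with robust variances (0.0423), with a minimum mean of 5 TPM (0.0253) and among protein-coding genes (0.0196), and Itga5, an integrin subunit gene, was called with it in each. Growth factors and receptors that depend on heparan sulfate had 1 of 13 tested genes higher and 2 lower (median -0.19). Of these 13 genes 5 had a limma unadjusted p under 0.05. Hbegf, which encodes a heparin-binding growth factor of the EGF family, rose by 1.36, and the fibroblast growth factor receptor genes Fgfr2 and Fgfr3 fell by 1.37 and 1.25 on the log2 scale (limma adjusted p = 0.0166, 0.026 and 0.0464).

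Of the hedgehog pathway 0 of 9 tested genes rose and 1 fell (3 at a limma unadjusted p under 0.05, median -0.07). Gas1, a hedgehog coreceptor on a GPI anchor like the glypicans, had 30.4 and 20.2 TPM in the TGFbeta libraries, against 105 and 126 TPM in the vehicle libraries (log2 change -2.17, SE 0.22, limma adjusted p = 0.00988). Among 8 other proteoglycans, some of which carry heparan sulfate only in part, 1 rose and 2 fell (median -0.56). Of these 8 genes 7 had a limma unadjusted p under 0.05, against 24.5% of all tested genes. With the test restricted to protein-coding genes, 5 of the 8 were called (2 higher, 3 lower). Cd44, which encodes a hyaluronan receptor, rose by 1.08 on the log2 scale (limma adjusted p = 0.0353). Col18a1, a basement membrane collagen with heparan sulfate chains, fell by 1.08, and Tgfbr3, the TGFbeta coreceptor betaglycan, fell by 1.04 (limma adjusted p = 0.0232 and 0.0352). All 10 of these partner and synthesis genes lost their calls with all detected genes in the test (limma adjusted p from 0.0742 to 0.137), where 0 genes were called in all. They also lost them without vehicle 1 or vehicle 2, fits that leave 1 library in a group, and each kept its direction. Without TGFbeta 1 the call of Gas1 remained, and without TGFbeta 2 those of Gas1 and Fgfr2 (limma adjusted p up to 0.131 and 0.169 among the 10). Pxylp1, Hs3st1 and Fgfr3 also lost theirs with libraries on a common median or quantile-normalized (limma adjusted p up to 0.0774 and 0.0875).

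**Figure D5:**
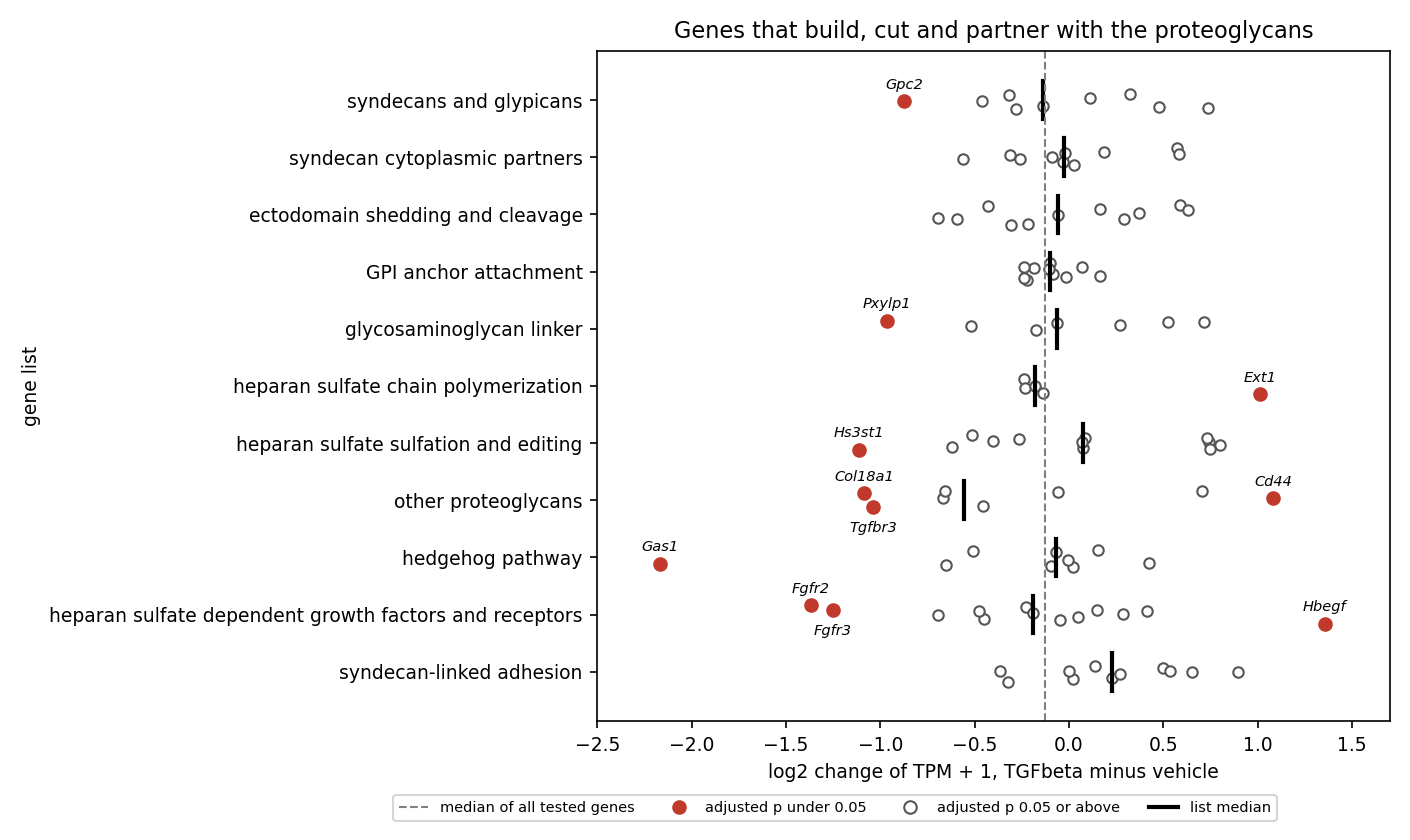
Log2 change of TPM + 1, TGFbeta minus vehicle, for the tested genes of 11 lists, with filled points for an adjusted p under 0.05, a black bar at each list median and a dashed line at the median of all tested genes (-0.13). Ext1, Cd44 and Hbegf lie to the right and Gas1 lies farthest to the left at -2.17, while Gpc2 is the 1 filled point among the syndecans and glypicans.

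By the distance between centred log2(TPM + 1) values over the 4 libraries, the genes most like Gpc2 among 11462 with a mean of at least 5 TPM were Pdk2, Slit3 and Gm15760, at distances of 0.0224, 0.0262 and 0.0346. Pdk2, which encodes a kinase of pyruvate dehydrogenase, had 9.29 and 9.21 TPM with TGFbeta and 16.8 and 18.8 TPM with vehicle. Slit3, which encodes a secreted guidance protein that binds heparan sulfate, had 33.3 and 32.8 TPM with TGFbeta and 57.7 and 62.9 TPM with vehicle. With 4 libraries many genes can lie this close, and the likeness is a description only.

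The labelled cell type was checked on 10 fibroblast markers. Their summed level was 20812 and 19749 TPM with TGFbeta and 23698 and 20055 TPM with vehicle, with all 10 above 1 TPM on average. Limma called 0 of these markers higher and 2 lower, with 5 at an unadjusted p under 0.05 and a median log2 change of -0.34. Those called were Pdgfra, which fell by 1.42, and Tcf21, by 1.11 on the log2 scale (limma adjusted p = 0.0106 and 0.0148). Over all tested genes 1.54% were called higher and 4.38% lower. Col1a1, Col1a2 and Thy1 had positive changes (0.91, 0.48 and 0.04), and the other markers had negative ones. Markers of other cell types had far lower sums, though single ones came closer. With TGFbeta, Lyz2, a macrophage and leukocyte marker, had 42.9 and 48.1 TPM, and Pdgfra had 55.5 and 57.8 TPM. The sums of the other cell types were lower in both TGFbeta libraries, as were 39.8% of all tested genes. A sum follows its markers with the highest TPM, and single markers differed in direction. Among tested pericyte and smooth muscle markers the median log2 change was 0.43, with Notch3 and Steap4 lower and Mcam and Cspg4 higher. Rgs5 and Myh11 were higher on average, with log2 changes of 0.96 and 0.15 (limma adjusted p = 0.445 and 0.692). The groups overlapped for Rgs5, which had 1.95 and 13.5 TPM with TGFbeta and 2.26 and 2.47 TPM with vehicle. Among tested cardiomyocyte markers Tnnt2, Tnni3 and Nppa were lower on average, while Actn2 and Myh7 had log2 changes of 0.02 and 0.05. For endothelial cells (8 markers) the sums were 55.5 to 62.5 TPM with TGFbeta and 78.3 to 82.7 TPM with vehicle, and for macrophages and leukocytes (8) they were 65.8 to 69.3 and 81.5 to 99.8 TPM. For cardiomyocytes (8) they were 68.1 to 73.4 TPM with TGFbeta and 86.4 to 130.2 TPM with vehicle, and for pericytes and smooth muscle (8) 81.3 to 84.0 and 121 to 123 TPM.
For epicardial and mesothelial cells (6) the sums were 11.4 to 11.9 TPM with TGFbeta and 13.7 to 16.4 TPM with vehicle, and for Schwann cells (5) 9.51 to 10.4 and 10.98 to 11.5 TPM. None of these markers was at 0 in all 4 libraries; Krt8 was at 0 in 3 and Myh6 in 1. Limma called 0 markers of endothelial cells (3 of 7 tested at an unadjusted p under 0.05), macrophages (2 of 8), cardiomyocytes (2 of 5), the epicardium (1 of 3) and Schwann cells (0 of 3), and for pericytes and smooth muscle 1 of 6 rose (Mcam, log2 change 0.98) and 2 fell (Notch3, -1.99, and Steap4, -2.28). All 5 called markers lost their calls with all detected genes in the test (limma adjusted p from 0.0604 to 0.0839), where 0 genes were called in all. They also lost them without vehicle 1 or vehicle 2, as did Mcam, Pdgfra and Steap4 without TGFbeta 1 and Mcam and Tcf21 without TGFbeta 2. Each fit without a library leaves 1 library in a group. The part of such cells in the lower level of Gpc2 was not tested.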

How the data were processed

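The authors deposited 1 TPM value per gene symbol and library, per the file headers, and each library was checked to sum to 1000000. The sources used here name no aligner, quantifier or genome build. Read numbers cannot be had from TPM, so the depth is unknown and counting error is not given. Groups come from the sample titles. Here, log2(TPM + 1) was fitted with limma 3.58.1 in R 4.3.3 (lmFit, eBayes with a trend, two-sided, treatment as the only term), with Benjamini-Hochberg adjustment over 15815 genes with a mean of at least 1 TPM. The fit was tested on simulated data. The members and lists were chosen with earlier results of these data known. From each list the text names up to 3 called genes, or the gene with the largest change where none was called; Ext2 and the genes beside Gpc2 were chosen after their values were seen. Loci are from GENCODE M21 (GRCm38), matched by symbol for 32227 of 33641 symbols, the promoter from RefSeq. Other pseudocounts, filters, scalings and variance models, the replicate block and each library left out were tried as 14 alternatives, and 1 was added after seeing the data.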

Additional observations from a re-analysis of the deposited data

How the results depend on the processing

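Under the main settings limma called 936 genes and 1 member. With all 23602 detected genes in the test limma called 0 genes (4348 at an unadjusted p under 0.05), among protein-coding genes 1715, and without an intensity trend 602. With 1 library left out, 0 to 203 genes were called (limma; 0 without vehicle 1 and 0 without vehicle 2, with 3033 and 2407 at an unadjusted p under 0.05). Of the members, 2 were called among protein-coding genes (Gpc1 and Gpc2), and 0 by limma with all detected genes in the test (4 at an unadjusted p under 0.05), quantile normalization (4), median scaling (4), the replicate block (3) or any 1 library left out (1 to 4). Signs reversed for Sdc2, to 0.016 after median scaling, with a range of -0.29 to 0.019 when 1 library was left out (0.019 without TGFbeta 1), and for Sdc4, with a range of -0.27 to 0.49 (-0.27 without vehicle 2). Replicate numbers have no stated common origin that would pair libraries: deviations of same-numbered libraries had r = -0.0539 across 15815 genes, and the block gave 631 calls. Gpc2 (limma adjusted p = 0.0801), Stag3 (0.0538), Tgfbr3, Hs3st1 and Fgfr3 (up to 0.0682) were not called with it. Of 472 comparisons of single log2 changes with their main value, 364 kept their direction and side of the threshold. Medians of the lists of cytoplasmic partners, shedding, GPI anchor attachment, the linker and hedgehog were below 0 (-0.10 to -0.03) and turned positive after median scaling (0.05 to 0.13) and quantile normalization (0.02 to 0.11). Without an intensity trend Cd44, Fgfr3, Hs3st1 and Pxylp1 lost their calls (limma adjusted p up to 0.0589), and with a pseudocount of 0.1 Hs3st1 did (0.0514). Genes with a mean under 5 TPM, such as Stag3 and every Schwann marker, have no value with a minimum mean of 5 TPM. Low genes are limited most, because a change near 1 TPM is pulled towards 0 by the pseudocount.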
